A study of Mus musculus with 24 samples.

Results

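The endocannabinoid system signals backwards across synapses. Postsynaptic neurons make the lipids 2-arachidonoylglycerol (2-AG) and anandamide on demand, these bind cannabinoid receptors on presynaptic terminals, and less transmitter is then released. In the hippocampus the receptor CB1 sits mainly on terminals of cholecystokinin interneurons and, more sparsely, on glutamatergic terminals, and the system is known as a brake on seizures. Enzymes end the signal by hydrolysing the lipids.

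The mRNA of 8 genes of this system was followed in the CA1 region of the mouse hippocampus after status epilepticus (SE), a prolonged seizure. They were chosen by symbol: the receptors Cnr1 and Cnr2, the 2-AG synthases Dagla and Daglb, the 2-AG hydrolases Mgll and Abhd6, the N-acyl-phosphatidylethanolamine phospholipase Napepld, and the anandamide hydrolase Faah. All 8 were found among the 18647 genes of the deposited count table. All 8 were also among the 18153 genes tested.

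The data were poly-A RNA-seq of microdissected CA1 tissue from adult C57Bl/6N mice, at least 60 days old and 20 g in weight. SE animals received 1 mg/kg scopolamine methyl nitrate, then 335 mg/kg pilocarpine hydrochloride (a muscarinic agonist), and 4 mg/kg diazepam after SE onset, and only mice that developed SE were used. Control animals received saline in place of pilocarpine and the same other injections, so both arms carry scopolamine and diazepam. The 8 groups were control (Ctr) at 12, 36 and 72 h, SE at those same times, and SE at 6 and 24 h, with 3 libraries each. The labels do not say whether each library is a separate mouse, so p-values measure the spread between these libraries. Their sex is not given in the labels.

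Libraries held from 2663936 to 30133731 counts, with a median of 13521590. The Ctr 72 h libraries were the shallowest group, at 11680209, 5793721 and 2663936 counts. Levels are given as CPM, the counts of a gene relative to the library total scaled by TMM, and changes as log2 fold changes (log2FC) with their standard error (s.e.). A gene was called where its adjusted p was at most 0.05 and its log2FC at least 0.66 in size between SE and control, or 1 between SE groups. Every adjusted p comes from the quasi-likelihood test of edgeR, adjusted by Benjamini-Hochberg across the genes tested. SE at 6 and 24 h has no control of its own time and was compared with the mean of the 3 control groups, so these comparisons share control libraries with the others.

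Markers of CA1 tissue were present throughout. All 5 CA1 pyramidal cell markers and all 6 neuronal markers were above 0 in every control library. Some libraries stood apart by genes of sensory ganglia and peripheral nerve, tissues outside the brain. The summed level of 11 such markers was over 300 CPM in 6 of 24 libraries and at most 79.5 CPM in the other 18. It was 1736 CPM in Ctr 72 h replicate 2, 932 and 470 CPM in SE 72 h replicates 1 and 2, 832 CPM in SE 36 h replicate 3, 678 CPM in SE 12 h replicate 1 and 333 CPM in SE 6 h replicate 3. Results that change without these 6 libraries are given with both values. At 72 h only 1 SE library remains without them, and it is then assumed to vary like the other groups.

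In each comparison of SE with control, few of the 8 genes were called. They numbered 2 of 8 at 6 h, where 22% of all genes tested were called, 1 of 8 at 12 h (25.3%), 1 of 8 at 24 h (24.2%), 2 of 8 at 36 h (21.6%) and 3 of 8 at 72 h (19.5%). With 8 genes, these counts say nothing particular about the list. Faah was called lower from 6 to 36 h, Cnr1 lower at 36 and 72 h, Daglb higher at 6 h, and Cnr2 and Mgll higher at 72 h. A call at one time and not at another does not show that the response differed, and by a test of that difference itself Cnr2, Mgll and Faah were called between 72 and 12 h. Cnr2 passed the filter on low counts only through its SE 72 h libraries, so its calls with that group are descriptive. The median log2FC of the 8 genes was -0.32 at 12 h and 0.45 at 72 h, where the medians of all genes tested were 0.01 and 0.10. The controls differed too: for Ctr 72 h the median was -0.36 against Ctr 36 h and -0.27 against Ctr 12 h. For all genes tested these medians were -0.07 and -0.08.

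**Figure D1:**
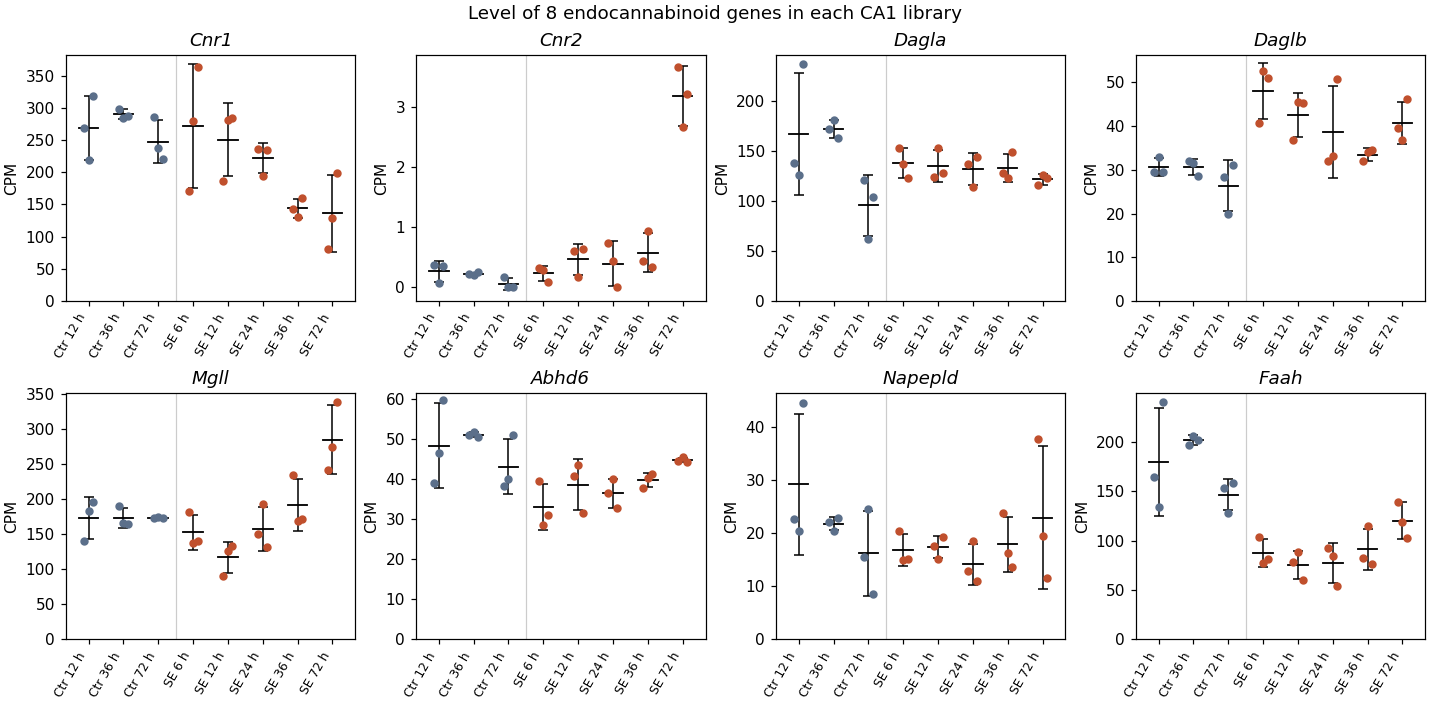
Level of each gene (y axis, CPM, linear) in the 24 libraries by group (x axis); points are libraries (blue control, red SE), bars the mean and SD of 3 libraries. Faah in all SE libraries from 6 to 36 h lies at or below 115 CPM while every control is at or above 128 CPM, and Cnr2 exceeds 1 CPM in the 3 SE 72 h libraries alone.

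The 8 genes spanned a wide range of levels. Divided by the length of their exons, control levels (mean ± SD, n = 9 libraries) were 28.6 ± 3.77 CPM per kb for Cnr1 and 28.1 ± 2.64 CPM per kb for Mgll, which did not differ beyond their spread. Faah (15.9 ± 3.37 CPM per kb) and Dagla (14.1 ± 4.93 CPM per kb) followed, again within each other's spread. Abhd6 (6.78 ± 1.03 CPM per kb), Napepld (3.07 ± 1.32 CPM per kb) and Daglb (1.75 ± 0.232 CPM per kb) came next, the last pair overlapping. Cnr2 was lowest at 0.0440 ± 0.0333 CPM per kb. Of the 2-AG synthases the α form (Dagla) was above the β form (Daglb), and of the hydrolases Mgll was above Abhd6. Over the 15 SE libraries together Mgll was 29.2 ± 10.7 and Cnr1 21.8 ± 8.01 CPM per kb, within each other's spread. Faah, at 8.18 ± 2.03 CPM per kb, was below Dagla, at 12.9 ± 1.27 CPM per kb. These means pool times that differed. At SE 12 h Mgll was 18.9 ± 3.66 and Cnr1 26.7 ± 5.98 CPM per kb. At SE 72 h they were 46.1 ± 7.99 and 14.5 ± 6.33 CPM per kb, without overlap. Faah and Dagla lay within each other's spread at SE 72 h, at 10.9 ± 1.69 and 11.9 ± 0.504 CPM per kb. Exon length is that of all annotated exons together, so a gene with long rarely used exons would be placed too low. Daglb has the greatest length, 16.707 kb, and the use of its exons was not measured.

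**Figure D2:**
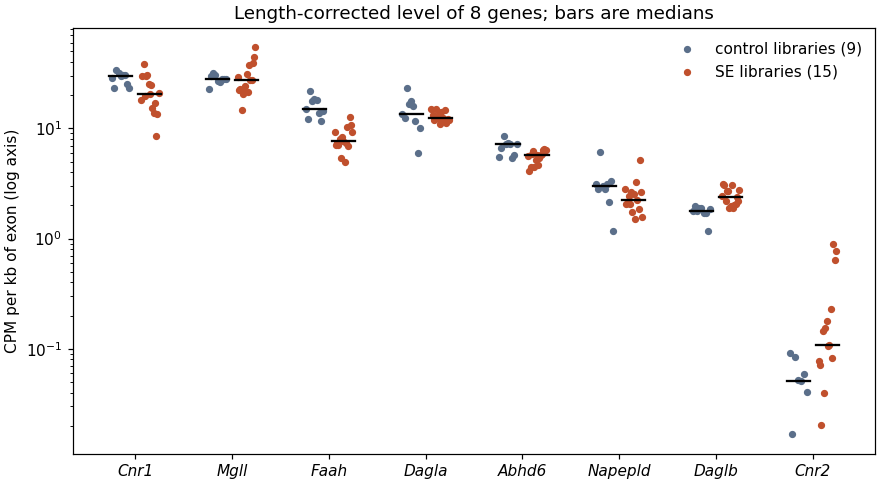
Length-corrected level of each gene (y axis, CPM per kb of exon, log axis) in 9 control and 15 SE libraries; bars are medians. Genes are ordered by their mean in controls, from Cnr1 and Mgll to Cnr2; the 3 libraries with no Cnr2 count cannot be drawn on the log axis.

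Faah carried the most lasting change and Cnr2 the largest. Faah (ENSMUSG00000034171, chromosome 4, 115824342 to 115875423, minus strand) and Cnr2 (ENSMUSG00000062585, chromosome 4, 135622696 to 135647518, plus strand) lie on the same chromosome of GRCm39. The 250 bases before the start of the main transcript of each are shown, read 5′ to 3′ on the strand of the gene, because these genes moved at opposite ends of the time course. The Cnr2 window is chr4:135622446-135622695 and the Faah window chr4:115875402-115875651. Capitals mark a match to a motif.
Cnr2: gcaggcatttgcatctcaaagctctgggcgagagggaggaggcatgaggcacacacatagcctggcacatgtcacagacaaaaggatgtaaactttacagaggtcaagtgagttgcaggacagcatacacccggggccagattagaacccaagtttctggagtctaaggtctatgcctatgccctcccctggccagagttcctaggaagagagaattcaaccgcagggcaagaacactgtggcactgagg
Faah: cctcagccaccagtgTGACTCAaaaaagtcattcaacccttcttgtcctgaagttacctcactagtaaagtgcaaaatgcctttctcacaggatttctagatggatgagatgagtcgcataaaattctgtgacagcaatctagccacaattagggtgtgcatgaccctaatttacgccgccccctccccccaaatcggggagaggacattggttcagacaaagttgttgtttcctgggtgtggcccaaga
Motifs were searched on both strands: AP-1 (TGANTCA), CRE (TGACGTCA), EGR1 (GCGNGGGCG) and PU.1 (GAGGAAGT). AP-1, CRE and EGR1 sites bind factors made or activated by neuronal activity, and PU.1 is a myeloid factor. One AP-1 match, TGACTCA, was found 235 bases before the Faah start, and 4.89% of 15428 promoters of protein-coding genes held that motif. The Cnr2 window held none of the 4, and CRE, EGR1 and PU.1 are found in 1.96%, 5.87% and 1.98% of promoters. Both windows were poor in CpG pairs, with 3 for Cnr2 and 4 for Faah where the median promoter had 11. The window of Mgll, by contrast, held 23. A match is a description of the letters and not a measured site, and the motifs were chosen with the expression results known.

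Among the receptors, Cnr1 encodes CB1, one of the most abundant G protein-coupled receptors of the brain. It stood at 298.8, 284.3 and 286.9 CPM in the Ctr 36 h libraries and at 142.9, 129.7 and 159.4 CPM in the SE 36 h libraries. The groups did not overlap. Its log2FC was -1.01 (s.e. 0.26, adjusted p = 0.0062), or 0.50 of control, and it was called under all 22 alternative settings (log2FC -1.23 to -0.89).

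At 72 h Cnr1 was 285.2, 237.5 and 220.1 CPM in controls and 80.6, 128.3 and 198.9 CPM after SE. The groups did not overlap, but the SE libraries were far apart. The log2FC was -0.88 (s.e. 0.27, adjusted p = 0.019). The lowest 2 SE libraries are those with sensory ganglion genes, and without the 6 such libraries the log2FC was -0.35 (adjusted p = 0.36). The call was also lost without SE 72 h replicate 1 (log2FC -0.60, adjusted p = 0.10), without SE 72 h replicate 2 (log2FC -0.84, adjusted p = 0.058) or without Ctr 72 h replicate 1 (log2FC -0.76, adjusted p = 0.068).

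Earlier, Cnr1 was close to control. Its log2FC was 0.02 (s.e. 0.21) at 6 h, -0.11 (s.e. 0.26) at 12 h and -0.28 (s.e. 0.22) at 24 h, with 95% intervals of -0.43 to 0.46, -0.65 to 0.44 and -0.73 to 0.18. These groups overlapped with the controls, and SE 6 h itself ranged from 171 to 363 CPM. With the range of the sample numbers in the labels as a batch factor, Cnr1 at 24 h was called (log2FC -0.85, adjusted p = 0.0088). No control shares the range of the SE 24 h libraries, so range and group cannot be told apart there. The response at 36 h differed from that at 12 h by -0.90 (s.e. 0.37, adjusted p = 0.17), which was not called. Without the 6 libraries with sensory ganglion genes this difference was -1.16 (adjusted p = 0.011).

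In bulk tissue, fewer cells of a type and less RNA per cell cannot be told apart. Neuronal, CA1 pyramidal and interneuron markers are therefore given beside Cnr1. The sum of 6 neuronal markers (most abundant Snap25) was 6479 ± 131 CPM at Ctr 36 h and 5227 ± 258 CPM at SE 36 h, and it was 6493 ± 236 and 4341 ± 62.9 CPM at 72 h (SD, n = 3). Of these 6 genes 1 was called at 36 h (Syt1, log2FC -0.86) and 2 at 72 h (Snap25, log2FC -0.73, and Syt1, log2FC -0.70). Of 5 markers of cholecystokinin interneurons 1 was called lower at 36 h (Cplx2, which other neurons also express) and 2 at 72 h (Cck, log2FC -1.23, and Slc17a8, log2FC -1.92). Their mean summed level, mostly Cplx2, was 1699 CPM at Ctr 36 h and 965 CPM at SE 36 h, and 1472 and 1137 CPM at 72 h. The sum of 8 markers of interneurons in general was 714 CPM at Ctr 36 h and 819 CPM at SE 36 h, with 1 of 8 called lower, and 791 and 538 CPM at 72 h, with 4 of 8 called lower. The sum of 5 CA1 pyramidal cell markers was 1035 CPM at Ctr 36 h and 673 CPM at SE 36 h, where the other control groups were at 643 (12 h) and 542 CPM (72 h), with Fibcd1 (log2FC -3.28) and Pou3f1 (log2FC -1.45) called lower, and it was 428 CPM at SE 72 h, with Fibcd1 (log2FC -1.45) called lower. Dentate granule cell markers (3 genes) summed to 76.0, 90.3 and 19.8 CPM in the SE 36 h libraries and to 19.5, 16.2 and 12.98 CPM in the Ctr 36 h libraries. The part of these cells in the Cnr1 result was not tested.

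Cnr2 encodes CB2, the cannabinoid receptor of immune cells and activated microglia. It was almost undetected in control CA1, with 0 to 9 counts per library. At 72 h it had 2, 0 and 0 counts in controls (0.169, 0 and 0 CPM) and 62, 28 and 66 counts after SE (3.67, 2.67 and 3.22 CPM). A count of 0 in these controls allows up to 0.512 and 1.12 CPM (3 counts), so every SE 72 h library was above this limit. The groups did not overlap.

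The ratio of Cnr2 counts per effective library at 72 h was 33.2, with a 95% exact interval of 9.03 to 276 that covers counting error only. Against all 9 control libraries together, which held 26 counts, the ratio was 14.6 (9.59 to 23.04). The fitted log2FC was 5.31 (s.e. 1.06, adjusted p = 0.00089). With so few counts in controls the fitted size depends on the prior count. Over the 19 alternatives that tested the gene the fitted log2FC ranged from 4.21 to 8.68, and the cause of that range was not tested. Cnr2 passed the filter on low counts through its SE 72 h libraries: elsewhere its highest level was 0.946 CPM, and 3 of the 5 libraries above the filter were from SE 72 h. Its calls with that group are therefore descriptive.

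Before 72 h no change of Cnr2 was called. It had 6, 12 and 6 counts at SE 36 h against 3, 4 and 3 at Ctr 36 h, a ratio of 2.48 (1.14 to 5.82, counting error only) and a fitted log2FC of 1.29 (s.e. 0.82, adjusted p = 0.25). At 12 h the ratio was 1.45 (0.723 to 3.01), so a change of this size was not detectable at this depth. From SE 36 h to SE 72 h Cnr2 rose by a log2FC of 2.51 (s.e. 0.71, adjusted p = 0.028), the 1 of 8 genes called in a comparison where 4.16% of all genes were called. That call was lost when any 1 of the 6 libraries was left out (log2FC 2.19 to 3.02, adjusted p 0.053 to 0.10). Without the 6 libraries with sensory ganglion genes the log2FC was 2.20 (adjusted p = 0.26).

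Microglial markers, like Cnr2, were higher at 72 h, but before that they changed where Cnr2 was not called. The sum of 10 markers was 431, 357 and 334 CPM in the Ctr 72 h libraries and 1328, 1812 and 1931 CPM in the SE 72 h libraries, and 9 of 10 were called higher. The most abundant were C1qa (log2FC 3.33) and Csf1r (log2FC 1.84), and Siglech (log2FC 0.44) was not called. None of the 10 was at 0 in any library. The sum was 247 CPM at SE 6 h, 524 CPM at SE 24 h and 675 CPM at SE 36 h, and at 6 h 6 of 10 markers were called lower. At 24 h 4 were called higher and 2 lower, and at 36 h 6 higher and 2 lower. Within SE 72 h the library with the highest Cnr2, replicate 1, had the lowest microglial sum. The part of microglial number in the Cnr2 result was not tested.

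**Figure D3:**
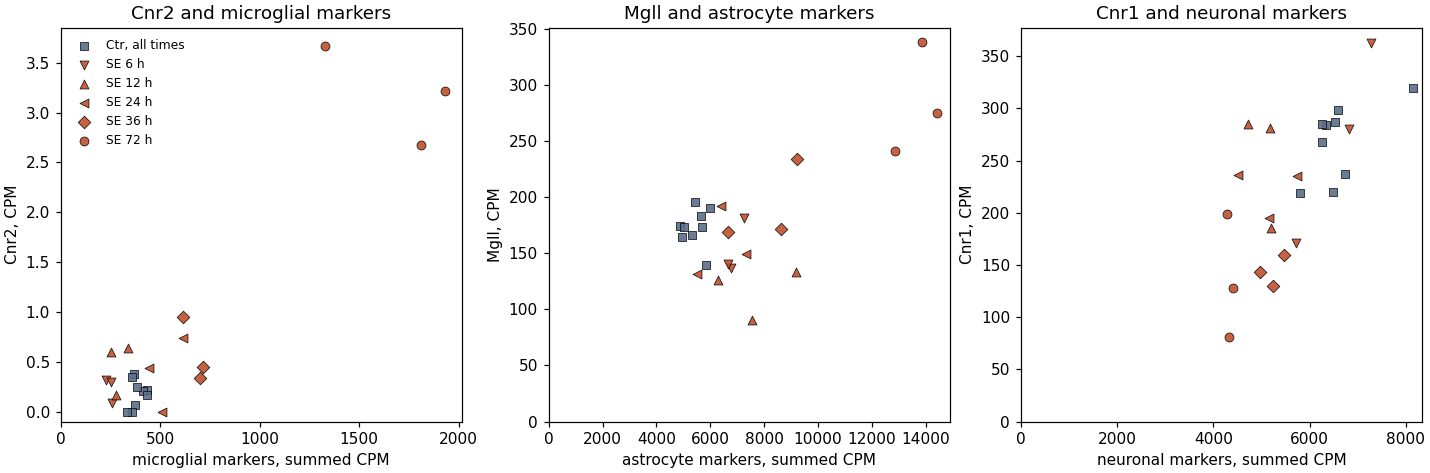
Cnr2, Mgll and Cnr1 (y axes, CPM) against the summed CPM of 10 microglial, 8 astrocyte and 6 neuronal markers (x axes); each point is 1 of 24 libraries, blue squares controls and red symbols SE by time. The 3 SE 72 h libraries lie apart from the rest on both axes for Cnr2 (2.67 to 3.67 CPM) and at the upper right for Mgll.

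Of the 2-AG synthases, Dagla makes most of the 2-AG used at adult synapses. It was not called in any comparison of SE with control, with log2FC from -0.37 (36 h, s.e. 0.18) to 0.38 (72 h, s.e. 0.18). The 15 SE libraries were narrow, from 113 to 153 CPM with a median of 127 CPM. The controls were wider, from 61.9 to 237 CPM.

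Dagla also differed among controls. It was 120.8, 61.9 and 103.9 CPM at Ctr 72 h, 172.3, 180.7 and 162.5 CPM at Ctr 36 h, and 137.7, 126.3 and 237.2 CPM at Ctr 12 h. Ctr 72 h did not overlap with either. Dagla was the 1 of 8 genes called between Ctr 72 h and Ctr 36 h (log2FC -0.88, s.e. 0.19, adjusted p = 0.017), where 2.04% of genes were called, and between Ctr 72 h and Ctr 12 h (log2FC -0.85, s.e. 0.19, adjusted p = 0.028), where 1.03% were called. The lowest value is that of Ctr 72 h replicate 2, the library with the most sensory ganglion RNA, and without it the log2FC was -0.61 (adjusted p = 0.20) and -0.57 (adjusted p = 0.31). Without all 6 libraries with sensory ganglion genes the adjusted p was 0.24 and 0.34. The first call was also lost without Ctr 36 h replicate 1 (adjusted p = 0.067) or 2 (adjusted p = 0.075), and the second without Ctr 12 h replicate 1 (adjusted p = 0.053) or 3 (log2FC -0.51, adjusted p = 0.10). No member was called between Ctr 36 h and Ctr 12 h, where 0% of genes were called (653 genes had an unadjusted p under 0.05).

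Daglb, the second 2-AG synthase and the form found in microglia and macrophages, was called at 6 h. It was 40.8, 52.6 and 51.0 CPM at SE 6 h, and the 9 controls ranged from 19.8 to 32.9 CPM with a median of 29.5 CPM. The groups did not overlap, and the log2FC was 0.73 (s.e. 0.12, adjusted p = 8.2e-05). The log2FC was near the threshold. It was 0.66, just below it, without Ctr 72 h replicate 2, and 0.61 without the 6 libraries with sensory ganglion genes, both with an adjusted p under that threshold (3.1e-05 and 0.0010).

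At later times Daglb had adjusted p-values below the threshold with smaller changes. Its log2FC was 0.47 (adjusted p = 0.018) at 12 h, 0.42 (adjusted p = 0.0091) at 24 h and 0.65 (adjusted p = 0.0041) at 72 h, and 0.13 (adjusted p = 0.57) at 36 h. The SE 72 h libraries, at 39.5, 36.8 and 46.1 CPM, did not overlap with the Ctr 72 h libraries at 28.3, 19.8 and 31.1 CPM. The 72 h change lay just below the threshold. It was called, with log2FC from 0.66 to 0.76, by limma-voom, when scaled by library totals alone, with at least 10 counts in every library, in the compared groups alone, with the sensory ganglion score as a factor, and without Ctr 72 h replicate 1 or 3 or SE 72 h replicate 1 or 2. Exons of Daglb share 2682 bases with exons of Rac1 on the opposite strand, and the counting did not use strand. Rac1 itself had a log2FC of 0.02 (s.e. 0.07) at 6 h and 0.22 (s.e. 0.08) at 72 h and was not called.

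Mgll encodes monoacylglycerol lipase, which removes most of the 2-AG in brain. At 12 h it was 90.9, 126.4 and 132.9 CPM after SE and 139.7, 183.5 and 195.4 CPM in controls, without overlap. The log2FC was -0.57 (s.e. 0.18, adjusted p = 0.017), which is smaller than the threshold of 0.66, so Mgll was not called at 12 h. It was called without Ctr 12 h replicate 1 (log2FC -0.70) or without SE 12 h replicate 3 (log2FC -0.67).

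At 72 h Mgll was 241.1, 274.6 and 338.3 CPM after SE, and 173.6, 174.1 and 173.2 CPM in controls. The groups did not overlap. The log2FC was 0.71 (s.e. 0.18, adjusted p = 0.0066). Without SE 72 h replicate 3 it was 0.57 (adjusted p = 0.040) and the gene was no longer called. From SE 36 h to SE 72 h Mgll differed by 0.57 (s.e. 0.18, adjusted p = 0.047) without overlap, below the threshold of 1. The response at 72 h exceeded that at 12 h by a log2FC of 1.28 (s.e. 0.26, adjusted p = 0.0018), a difference called under all 26 alternatives (1.13 to 1.41).

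Monoacylglycerol lipase is present in astrocytes as well as in presynaptic terminals. The sum of 8 astrocyte markers was 5202 ± 430 CPM at Ctr 72 h and 13711 ± 778 CPM at SE 72 h (SD, n = 3). Gfap was the most abundant, up to 8779 CPM, and 3 of 8 markers were called higher: Gfap (log2FC 4.999), Aqp4 (log2FC 2.56) and Aldh1l1 (log2FC 2.13). The glutamate transporter Slc1a2 (log2FC -0.29) and Aldoc (log2FC -0.10) were not called. None of the 8 was at 0 in controls. The part of astrocytes in the Mgll result was not tested.

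Abhd6, a postsynaptic 2-AG hydrolase, was not called in any comparison of the full set of libraries. Its log2FC was -0.52 (s.e. 0.13, adjusted p = 0.0042) at 6 h and -0.37 (s.e. 0.13, adjusted p = 0.028) at 24 h, and 0.07 (s.e. 0.16, adjusted p = 0.79) at 72 h. The 3 SE 6 h libraries, from 28.5 to 39.4 CPM, overlapped slightly with the controls, whose lowest was 38.1 CPM. Without SE 6 h replicate 1 the log2FC at 6 h was -0.67 (adjusted p = 0.0019).

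In the anandamide branch, Napepld makes the lipid from membrane N-acyl-phosphatidylethanolamine. Its libraries were far apart within groups. Ctr 12 h ranged from 20.5 to 44.5 CPM and SE 72 h from 11.5 to 37.8 CPM, with values from 8.62 to 24.6 CPM at Ctr 72 h. Its largest log2FC between SE and control was -0.75 at 12 h (s.e. 0.34, 95% interval -1.46 to -0.04, adjusted p = 0.088), and at 72 h it was 0.52 (s.e. 0.36, adjusted p = 0.30). The response at 72 h exceeded that at 12 h by 1.27 (s.e. 0.49, adjusted p = 0.070), which was not called. That difference was called by DESeq2 (1.24, adjusted p = 0.0499), without Ctr 72 h replicate 2 (1.53, adjusted p = 0.039) and without SE 72 h replicate 3 (1.61, adjusted p = 0.020). Intervals this wide leave changes of more than the threshold possible.

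Faah encodes fatty acid amide hydrolase, which breaks down anandamide. The 9 controls had a median of 165 CPM, a lowest value of 128 CPM and a highest of 240 CPM. After SE it was 103.7, 77.8 and 81.3 CPM at 6 h, 78.7, 88.3 and 60.2 CPM at 12 h, 92.8, 84.9 and 54.4 CPM at 24 h, and 82.3, 114.6 and 76.2 CPM at 36 h. All 12 of these libraries were below all 9 controls. The sum of the 6 neuronal markers was 6479 to 6728 CPM in the means of the control groups, 6610 CPM at SE 6 h, 5032 CPM at 12 h and 5130 CPM at 24 h, and that of the cholecystokinin interneuron markers was 1472 to 1796 CPM in controls and 1215, 1038 and 969 CPM at these times. None of the 6 neuronal markers was called at 6 h and 1 at each of 12 and 24 h. The part of neurons in the Faah result was not tested.

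The log2FC of Faah was -0.995 (s.e. 0.19, adjusted p = 0.00033) at 6 h, -1.25 (s.e. 0.22, adjusted p = 0.00019) at 12 h, -1.17 (s.e. 0.19, adjusted p = 5.6e-05) at 24 h and -1.15 (s.e. 0.22, adjusted p = 0.00042) at 36 h. Faah was thus at 0.50, 0.42, 0.44 and 0.45 of control. These 4 calls held under every alternative run, 26 at 6 and 24 h and 22 at 12 and 36 h, with log2FC between -1.38 and -0.79. Faah was the 1 gene called at 12 and at 24 h.

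At 72 h Faah was 139.5, 119.0 and 102.2 CPM after SE and 153.0, 128.4 and 158.6 CPM in controls. The groups overlapped, and the log2FC was -0.28 (s.e. 0.22, 95% interval -0.74 to 0.17, adjusted p = 0.36). The response at 72 h was less negative than at 12 h by 0.96 (s.e. 0.31, adjusted p = 0.030). That difference was lost without Ctr 12 h replicate 3 (0.70, adjusted p = 0.098), without SE 12 h replicate 3 (0.83, adjusted p = 0.072), without SE 72 h replicate 1 (0.84, adjusted p = 0.071), in the compared groups alone (0.89, adjusted p = 0.070), and without the 6 libraries with sensory ganglion genes (0.69, adjusted p = 0.22). From 36 to 72 h the change in response was 0.87 (s.e. 0.31, adjusted p = 0.0997) and was not called. Both arms enter it: SE 72 h against SE 36 h was 0.41 (adjusted p = 0.25). Ctr 72 h against Ctr 36 h was -0.46 (adjusted p = 0.22), and neither was called.

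**Figure D4:**
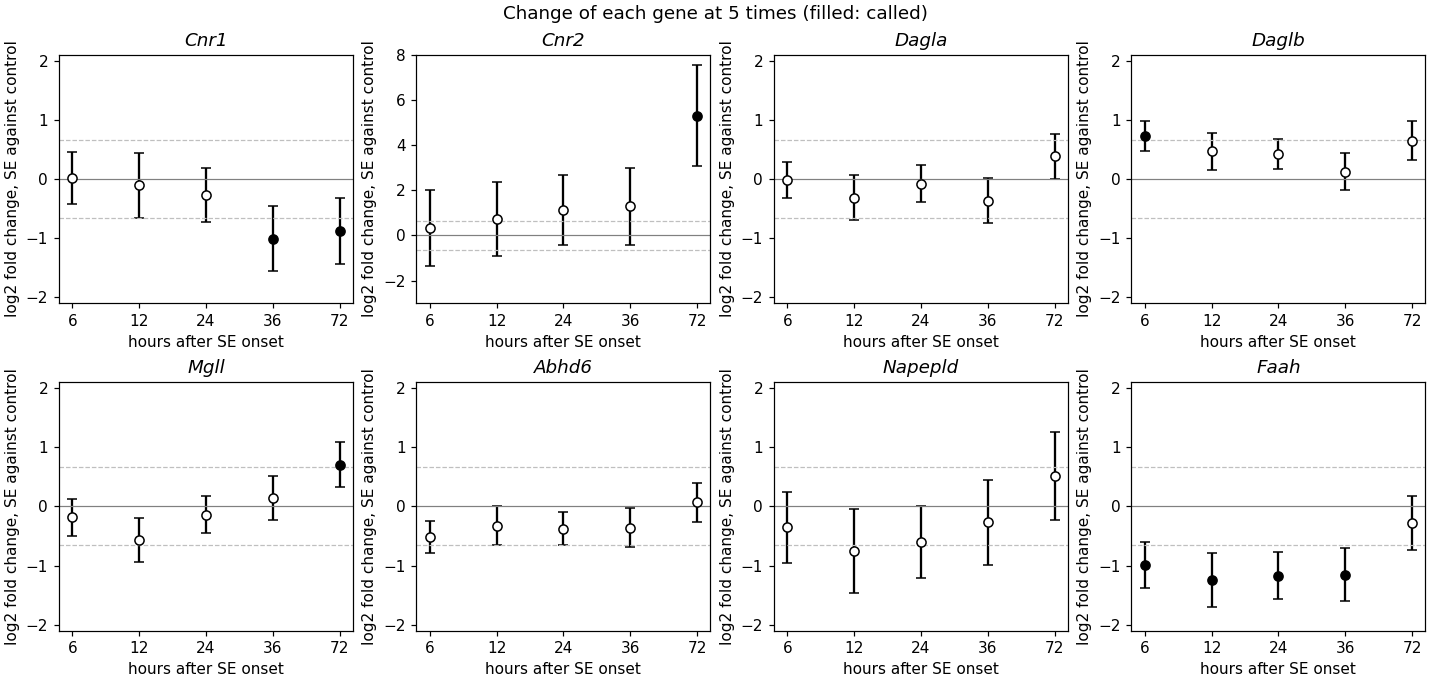
Log2 fold change of each gene between SE and control (y axis; Cnr2 has a wider scale) at 5 times (x axis, hours after SE onset, not to scale). Points are estimates, bars 95% intervals, filled points called genes and dashed lines the threshold of ±0.66; Faah is filled from 6 to 36 h, Cnr1 at 36 and 72 h, Daglb at 6 h, and Cnr2 and Mgll at 72 h.

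Of the 4 steps along the SE time course, the last, from 36 to 72 h, had 1 of the 8 genes called, Cnr2. None was called from 6 to 12 h (1.36% of all genes called), from 12 to 24 h (3.22%) or from 24 to 36 h (0.523%), at the threshold of 1. By edgeR no member had an adjusted p under 0.05 in these 3 steps. In tests of whether the SE response differed between times, none was called between 36 and 12 h (3.36% of all genes) or between 72 and 36 h (4.90%), and 3 of 8 between 72 and 12 h (18.6%). The 3 were Cnr2 (difference 4.58, s.e. 1.41, adjusted p = 0.025), Mgll and Faah, all higher at 72 h. Cnr2 was tested only because its SE 72 h libraries passed the filter on low counts, so its calls with that group are descriptive. The Cnr2 difference was lost without Ctr 12 h replicate 1 (adjusted p = 0.051), without Ctr 12 h replicate 3 (adjusted p = 0.074), without Ctr 72 h replicate 2 (adjusted p = 0.068), with the range of the label number as a factor (adjusted p = 0.092) and without the 6 libraries with sensory ganglion genes (4.10, adjusted p = 0.14).

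A wider list of 24 genes covers the production, transport and other fates of these lipids, and 22 of them were tested. At 6 h 2 were called higher and 4 lower, at 12 h 2 and 6, at 24 h 1 and 6, at 36 h 2 and 7, and at 72 h 3 and 1. Of all genes tested, 22%, 25.3%, 24.2%, 21.6% and 19.5% were called at these times, and the counts are no result about the list. The list's median log2FC was -0.38 at 12 h and -0.09 at 72 h, where the medians of all genes were 0.01 and 0.10. The genes described here are receptors that trigger 2-AG production, enzymes, carriers and a channel.

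Metabotropic glutamate receptors such as Grm5, and muscarinic receptors, drive 2-AG synthesis through phospholipase C. Grm5 was lower from 6 to 36 h, with log2FC of -0.71, -1.32 (s.e. 0.15, adjusted p = 1.6e-06), -0.95 and -1.21. At 12 h Grm5 ranged from 104 to 119 CPM after SE and from 235 to 315 CPM in controls, without overlap. At 72 h it was not called, but it ranged from 144 to 206 CPM after SE and from 245 to 297 CPM in controls, again without overlap. The Grm5 call at 6 h was lost without SE 6 h replicate 1 (log2FC -0.58). Plcb1, the phospholipase C of these receptors, was lower at 12 h (log2FC -0.98) and 36 h (log2FC -0.83). Chrm1 was lower at 24 h (log2FC -0.78) and 36 h (log2FC -0.99), the former not called without SE 24 h replicate 3 (log2FC -0.64). Chrm3 was higher at 6 h (log2FC 0.89) and lower at 24 h (log2FC -0.77) and 36 h (log2FC -1.19), and the 24 h call was lost when any 1 of the 3 libraries of SE 24 h, Ctr 12 h replicate 3, Ctr 36 h replicate 2 or Ctr 72 h replicate 3 was left out (adjusted p 0.053 to 0.13). The 36 h call was lost without SE 36 h replicate 3 (adjusted p = 0.050).

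Other enzymes of the N-acylethanolamines were called as follows. Plaat1, an N-acyltransferase, was lower at 6 h (log2FC -1.03) and 12 h (log2FC -1.52), and its response at 72 h was higher than at 12 h by 1.499 (s.e. 0.29, adjusted p = 0.0015). Naaa, a lysosomal hydrolase of N-acylethanolamines, was lower at 24 h (log2FC -1.36) and 36 h (log2FC -1.15). It was 14.4 to 20.3 CPM at SE 24 h and 36.1 to 55.9 CPM in the controls, without overlap. Abhd4, an enzyme of an alternative route to anandamide, was called higher at 72 h (log2FC 1.08, s.e. 0.14, adjusted p = 1.1e-05), at 141 to 146 CPM against 57.0 to 75.0 CPM. At 6 h its log2FC was 0.35 (adjusted p = 0.019), below the threshold, and at 36 h it was 0.31 (adjusted p = 0.098).

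Ptgs2 encodes cyclooxygenase-2, which can oxygenate 2-AG and anandamide. It was higher from 6 to 36 h, with log2FC of 2.65 at 6 h, 3.69 at 12 h, 5.11 at 24 h (s.e. 0.47, adjusted p = 3.7e-08) and 4.36 at 36 h. The SE 24 h libraries ranged from 206 to 955 CPM, and the 9 controls from 4.35 to 42.5 CPM. At 72 h it was 17.6 to 36.4 CPM and was not called (log2FC 0.89).

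Fatty acid binding proteins carry endocannabinoids inside cells. Fabp3 was lower at all 5 times, with log2FC from -1.18 to -0.86, and was called under every alternative. The SE libraries, at 10.6 to 18.6 CPM, were all below the controls, at 26.1 to 37.9 CPM. Fabp5 was lower at 12 h (log2FC -0.67) and higher at 72 h (log2FC 0.69), both near the threshold, and the calls held under 14 of 22 alternatives at 12 h and 18 of 21 at 72 h. Fabp7, the form of astrocytes and neural progenitors, was higher at 36 h (log2FC 2.01) and 72 h (log2FC 2.54), and it was also higher in Ctr 72 h than in Ctr 36 h (log2FC 1.74, adjusted p = 0.030). That last call was lost without Ctr 72 h replicate 2 (log2FC 1.14, adjusted p = 0.29), without the 6 libraries with sensory ganglion genes (log2FC 1.15, adjusted p = 0.17) or without any 1 of the Ctr 36 h libraries.

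Trpv1, a channel opened by anandamide and abundant in sensory neurons, was called higher at 12 h (log2FC 4.27, s.e. 1.57, adjusted p = 0.037). It was 20.3, 1.29 and 0.637 CPM at SE 12 h, and the first of these is the library with sensory ganglion genes. Its highest level, 48.3 CPM, was in Ctr 72 h replicate 2. The call was lost without SE 12 h replicate 1, without the 6 libraries with sensory ganglion genes (log2FC 2.20, adjusted p = 0.060), and also without any 1 of the Ctr 12 h libraries.

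**Figure D5:**
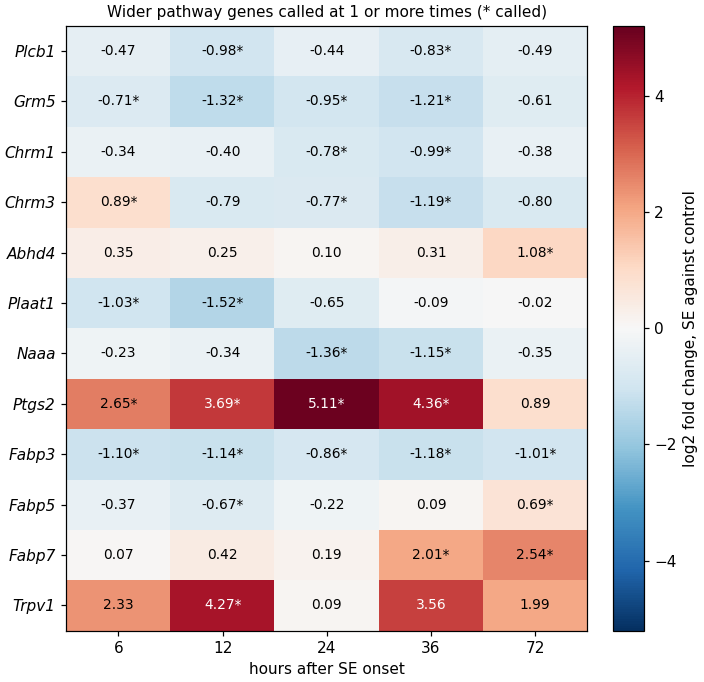
Log2 fold change (colour, number in each cell) between SE and control of 12 genes of the wider list called at 1 or more of 5 times (x axis, hours after SE onset); an asterisk marks a call. Fabp3 is negative at all 5 times, Grm5 is marked as called lower from 6 to 36 h, and Ptgs2 is highest at 24 h (5.11).

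The patterns of the 8 genes over the 24 libraries were compared by Pearson's r of log2 CPM, as a description without a p-value. The libraries share groups, depth and composition. Faah and Abhd6 were most alike among the 8 (r = 0.80), and Daglb and Faah most opposed (r = -0.63). Among 13726 genes, those most like Faah included Bcl7a (r = 0.94) and Lrrn2 (r = 0.93). The most like Cnr1 were Agap2 (r = 0.92), Nrgn (r = 0.91) and Ddn (r = 0.91). The most like Mgll were Arhgef19 (r = 0.91), Lfng (r = 0.90) and Tpp1 (r = 0.87), and the most like Cnr2 were Chtf18 (r = 0.89), Gpld1 (r = 0.89) and Kcnk6 (r = 0.86). For Daglb they were Vps37c (r = 0.93), Zfp513 (r = 0.89) and Itga9 (r = 0.88), for Dagla Tsc2 (r = 0.81), Nck2 (r = 0.79) and Gm35558 (r = 0.79), for Abhd6 Zfp950 (r = 0.85), Pomk (r = 0.85) and Zfp758 (r = 0.84), and for Napepld Thsd7a (r = 0.84), Ttc39c (r = 0.81) and Btbd3 (r = 0.80).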

How the data were processed

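CA1 poly-A RNA of 24 libraries in 8 groups was sequenced (TruSeq v2, HiSeq1500). The authors trimmed reads with Trim Galore 0.6.6, aligned them to GRCm39 with STAR 2.7.8a, used SAMtools 1.10 and counted genes without strand by HTSeq 0.13.5. The deposited values are raw counts per gene, without low genes. Symbols, positions and exon lengths came from a later GENCODE release on the same build, matched by Ensembl ID for 18552 of 18647 genes. The 8 genes, the lists and the tests were chosen with earlier results of these data known.

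Counts were fitted with edgeR 4.0.16 (R 4.3.3): low genes removed by filterByExpr over the 8 groups, TMM scaling, all groups in one fit with 1 factor of unwanted variation from the residuals (RUVr), quasi-likelihood tests and Benjamini-Hochberg adjustment over 18153 genes. On data simulated for SE 12 h against Ctr 12 h (17689 genes), 154 of 200 genes changed by a log2FC of 1.5 were called, and 5 others were called in error. All other genes were simulated at the same level in every group, with no factor of unwanted variation. These rates check the fit and do not carry over to the data, where far more genes were called. Named genes were all 8, every gene of the wider list called in a comparison of SE with control, and the 3 genes most like each of the 8 in log2 CPM (prior count 2, mean log2 CPM at least 1). Marker lists for 12 cell types or tissues were summed as CPM. Replicates were checked for duplicates and none was found (lowest chi-square per degree of freedom 4.55). Intervals and limits on counts cover counting error only. Alternatives used DESeq2 1.42.0 and limma-voom (limma 3.58.1), other scalings and filters, and fits without single libraries; 2 settings on sensory ganglion genes were added after the data were seen. Promoter windows were read from GRCm39. A few genes that these rules name are not reported here.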

Additional observations from a re-analysis of the deposited data

Results flagged for a closer look

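Among the 9 control libraries, the lowest Daglb level, 19.8 CPM in Ctr 72 h replicate 2, stood apart from the others by its gap to the next value, 28.3 CPM. That library also had the most sensory ganglion RNA (1736 CPM over 11 markers), and the part of that RNA in the Daglb level was not tested. The highest Napepld level, 44.5 CPM in Ctr 12 h replicate 3, stood apart likewise, the next being 24.6 CPM. Chance gives such a gap in about 1 in 20 groups, and 8 genes were looked at.

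The SE response differed between 72 h and 12 h, by a test of the difference itself, for Cnr2 (log2FC difference 4.58), Mgll (1.28) and Faah (0.96). Of these the Mgll difference alone was called under all alternatives run. The Cnr2 call is descriptive, since only its SE 72 h libraries brought the gene past the filter on low counts.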

How the results depend on the processing

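Over 8 genes and 15 comparisons, 48 of 2688 alternative values lost a call and 35 gained one. The other 2605 held, mostly as uncalled. Sign changed in 116, none called. With the replicate number as a block the counts of members called stayed at 2, 1, 1, 2 and 3 in the 5 comparisons of SE with control, from 6 to 72 h, and no member's call changed. The deviations of samples with the same number had r from -0.20 to 0.18, and those with different numbers r from -0.30 to 0.25. With 3 libraries per group these values cannot decide whether samples of the same number are paired.

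Numbers of members called moved by more than 1.5 times as follows, and smaller moves come after. With no log2FC threshold there were 3 at 12 h, 3 at 24 h and 2 between SE 72 h and SE 36 h. Ctr 72 h was compared with Ctr 12 h and Ctr 36 h, and both counts were 0 by limma-voom and without the RUVr factor. The latter also gave 0 from SE 36 h to SE 72 h. The labels number the samples, and the range of that number was tried as a batch factor in place of the RUVr factor. With it there were 1 at 6 h, 2 at 24 h, and 0 for SE 72 h against SE 36 h and for both Ctr 72 h comparisons. Leaving out the RUVr factor alone also gave these counts of 0. In the comparisons at 24 h and at 72 h each range holds SE or control libraries alone, so range and group cannot be told apart. Mgll at 72 h was then 0.62 (adjusted p = 0.16). Daglb at 6 h was 0.62 with this factor and 0.49 after thinning, and was not called in either. Thinning to the smallest library gave 1 at 6 h, 0 from SE 36 h to SE 72 h and 0 from Ctr 12 h to Ctr 72 h. At least 10 counts in every library left out Cnr2, as thinning did, and gave 0 between SE 72 h and SE 36 h. The compared groups alone gave 0 from Ctr 12 h to Ctr 72 h, 3 for the SE effect at 72 h minus at 36 h, and a Cnr1 log2FC at 72 h of -0.86 (adjusted p = 0.067). The sensory ganglion score as a factor, also in place of the RUVr factor, gave 0 for both Ctr 72 h comparisons, as leaving out the RUVr factor alone did. Without the 6 libraries high in those genes there were 1 at 6 h, 0 between SE 72 h and SE 36 h, 0 for both Ctr 72 h comparisons, 1 for the SE effect at 36 h minus at 12 h and 1 at 72 h minus at 12 h. Smaller moves were 3 at 6 h and 4 at 72 h with no log2FC threshold, and 4 at 72 h by limma-voom, by library totals and with the ganglion score, by Abhd6 and Daglb. At 72 h there were 2 with the range factor (Mgll lost), after thinning (Cnr2 not tested) and without the 6 libraries (Cnr1 lost). At 72 h minus at 12 h there were 4 by DESeq2 (Napepld gained) and by library totals (Dagla gained), and 2 with the range factor (Cnr2 lost), after thinning and in the compared groups alone (Faah lost). With at least 10 counts, Daglb was gained at 72 h and Dagla at 72 h minus at 12 h. The cause was not tested.

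Leaving out single libraries gave 1 to 3 members at 6 h, 1 to 2 at 12 h, 0 to 1 between SE 72 h and SE 36 h (1 only where the library left out, Ctr 72 h replicate 2, belonged to neither) and for each Ctr 72 h comparison, 0 to 1 for the SE effect at 72 h minus at 36 h, and 1 to 5 at 72 h minus at 12 h. The calls of Faah from 6 to 36 h and Cnr1 at 36 h held under all settings run. The depth of Ctr 72 h replicate 3, 2663936 counts, limits Cnr2 most, since 3 counts there equal 1.12 CPM.

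Counts of all genes called moved by more than 1.5 times as follows. The count was 3997 at 6 h and 2190 with at least 10 counts in every library, and 4393 and 2499 at 24 h, and 3926 and 2494 at 36 h. With no log2FC threshold it was 7247 at 6 h, 6984 at 12 h (from 4585) and 7510 at 24 h. At 72 h it was 3536, and 1595 with the range factor, 1899 with at least 10 counts and 2259 without the 6 libraries. The other counts ranged over all settings from 72 to 831 (246 in the fit reported) for SE 12 h against SE 6 h, 106 to 1661 (584) for 24 h against 12 h, 14 to 291 (95) for 36 h against 24 h and 369 to 1883 (756) for 72 h against 36 h. For the SE effect they ranged from 202 to 1221 (610) at 36 h minus 12 h, 136 to 1733 (889) at 72 h minus 36 h and 1626 to 4029 (3385) at 72 h minus 12 h. Ctr 36 h against Ctr 12 h gave 0, but 5 by DESeq2 and 179 in the compared groups alone. Against Ctr 36 h, Ctr 72 h gave 371 (0 to 1516), and against Ctr 12 h 187 (0 to 1195), both lowest without its replicate 2 and highest without its replicate 1. Replicate 2 had a RUVr factor of 0.80. Scaling by the library total alone moved the median log2FC of all genes at 36 h from 0.003 to 0.127.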

Other observations

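Markers of other cell types in the same libraries are given as summed levels. Oligodendrocyte markers (6 genes) were 5663 CPM at SE 6 h, with 2 of 6 called higher, and 2579 CPM at SE 36 h, with none called. Vascular markers (5 genes) were 178 to 188 CPM in the control groups and 284 to 409 CPM after SE, and 3 to 5 of 5 were called higher at each time. Of 4 leukocyte markers tested 1 or 2 were called higher at each time. The sum of the 5 in the count table was 21.3, 12.0 and 0.926 CPM in the SE 72 h libraries, 16.2 CPM in Ctr 72 h replicate 2 and 9.12 CPM in SE 36 h replicate 3, and all of these but 0.926 CPM are from libraries with sensory ganglion genes. Dentate granule cell markers (3 genes) were 229, 16.4 and 23.8 CPM in the SE 72 h libraries, so their mean rests on replicate 1, which also had the lowest Cnr1 and the highest Napepld of that group. They were 15.2, 3.24 and 11.6 CPM in the Ctr 72 h libraries, and 87.9, 16.04 and 92.2 CPM at SE 12 h against 47.4, 33.4 and 88.7 CPM at Ctr 12 h. The mean sum of choroid plexus markers was at most 7.21 CPM in any group (SE 6 h), and the highest library, also of SE 6 h, was at 15.97 CPM.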
